A study of Mus musculus with 10 samples.

Results

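The 9 genes of the complement system described here were measured in macrophages sorted from mouse mammary tumours. They encode the chains of C1q (C1qa, C1qb, C1qc), the central components C4 (C4a, C4b) and C3, the alternative pathway proteins factor B (Cfb) and properdin (Cfp), and the receptor of the C3a fragment (C3ar1). They were taken by gene symbol, and each of the 9 was found among the 46957 loci listed for every sample. The set was proposed because C4a and C4b were higher after treatment in these same samples, so the differences of the 9 genes between the groups are given as a description, with no test.

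The 10 samples were macrophages from tumours of 4T1, a mouse mammary carcinoma line implanted into the mammary fat pad in BALB/cJ mice. Of these, 5 samples came from mice given the vehicle PBS, and 5 from mice given JHU083 at 1 mg/kg from day 7 to day 13. JHU083 releases the glutamine antagonist 6-diazo-5-oxo-L-norleucine in the body, and all tumours were harvested on day 14. The sort kept live (7AAD-) CD45+ CD11b+ F4/80+ cells without CD8, Ly6C or Ly6G. The mice carried no genetic change named in the labels, and their age is not given in the sources used here. The labels do not say that the samples of a group came from separate mice, so the p-values below measure the spread between these samples, which may be technical in part.

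The complement system is a cascade of plasma and cell-surface proteins that tags particles and cells for uptake and can form pores in membranes. In the classical pathway C1q binds a target and its partner proteases cut C4 and C2, which together form an enzyme that cuts C3. The alternative pathway amplifies C3 cleavage with factor B and is stabilised by properdin, while soluble and membrane-bound regulators hold it in check. Most plasma complement is made in the liver, but macrophages are the main source of C1q and make several other components locally.

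Levels are given as CPM, the fragment count scaled to a common depth after adjusting library sizes by the trimmed mean of M-values (TMM), or, to compare different genes, as the FPKM values the authors deposited, which are per kilobase. The libraries held 11147870 to 15740700 fragments, and 3 fragments, the smallest number taken as detected, correspond to 0.196 to 0.261 CPM. The summed CPM of the 6 macrophage markers was 9416 to 11316 in vehicle and 12893 to 17964 in JHU083, and 4 of the 6 rose by the test across all loci, edgeR's quasi-likelihood test with Benjamini-Hochberg adjustment at 0.05. All 8 epithelial markers fell, with sums of 293 to 642 CPM in vehicle and 102 to 216 in JHU083, and 4 of 6 fibroblast markers tested fell, with sums over 7 markers of 99.3 to 222 and 24.7 to 112 CPM. The lymphocyte sums were at most 2.74 CPM, with Ms4a1 among the markers at or under the smallest detected number, and Ly6g and Camp of the 8 neutrophil markers were too. The neutrophil sums were 92.6 to 103 CPM in vehicle and 94.2 to 145 in JHU083; of 5 markers tested, S100a8 (log2 fold change -1.40) and S100a9 (-2.18) fell and Csf3r (0.53) rose. The part of these other cells in the results below was not tested. In bulk RNA, a change in the number of cells of a type and a change in RNA per cell cannot be told apart. In 3 vehicle and 2 JHU083 samples the ribosomal locus Rn18s-rs5 was listed at 0, and results that move with those samples are named beside them. Of 12500 loci tested, 2296 (18.4%) were higher and 2293 (18.3%) lower in JHU083, and without TMM, on library totals alone, the counts were 1564 and 3141.

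Of the 9 genes, 4 (C3, C4a, C4b, C3ar1) were past that threshold in the higher direction beside the 18.4% of all loci, and 1 (Cfp) in the lower direction beside 18.3%, which makes 5 of 9 in either direction beside 36.7%. Since the same comparison chose the genes, nothing is read from these counts. Their median log2 fold change was 0.15, against 0.01 over all loci tested. The groups did not overlap for C4a and C4b, and overlapped for the other 7. Of all loci, 22.3% had groups that did not overlap, 11.2% with every JHU083 sample above every vehicle sample. The differences ran from C4a and C4b, more than 4 times higher in JHU083, through C3 in between, to C1q chains, Cfb, Cfp and C3ar1, of which C3ar1 had the widest difference at 1.21-fold.

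**Figure D1:**
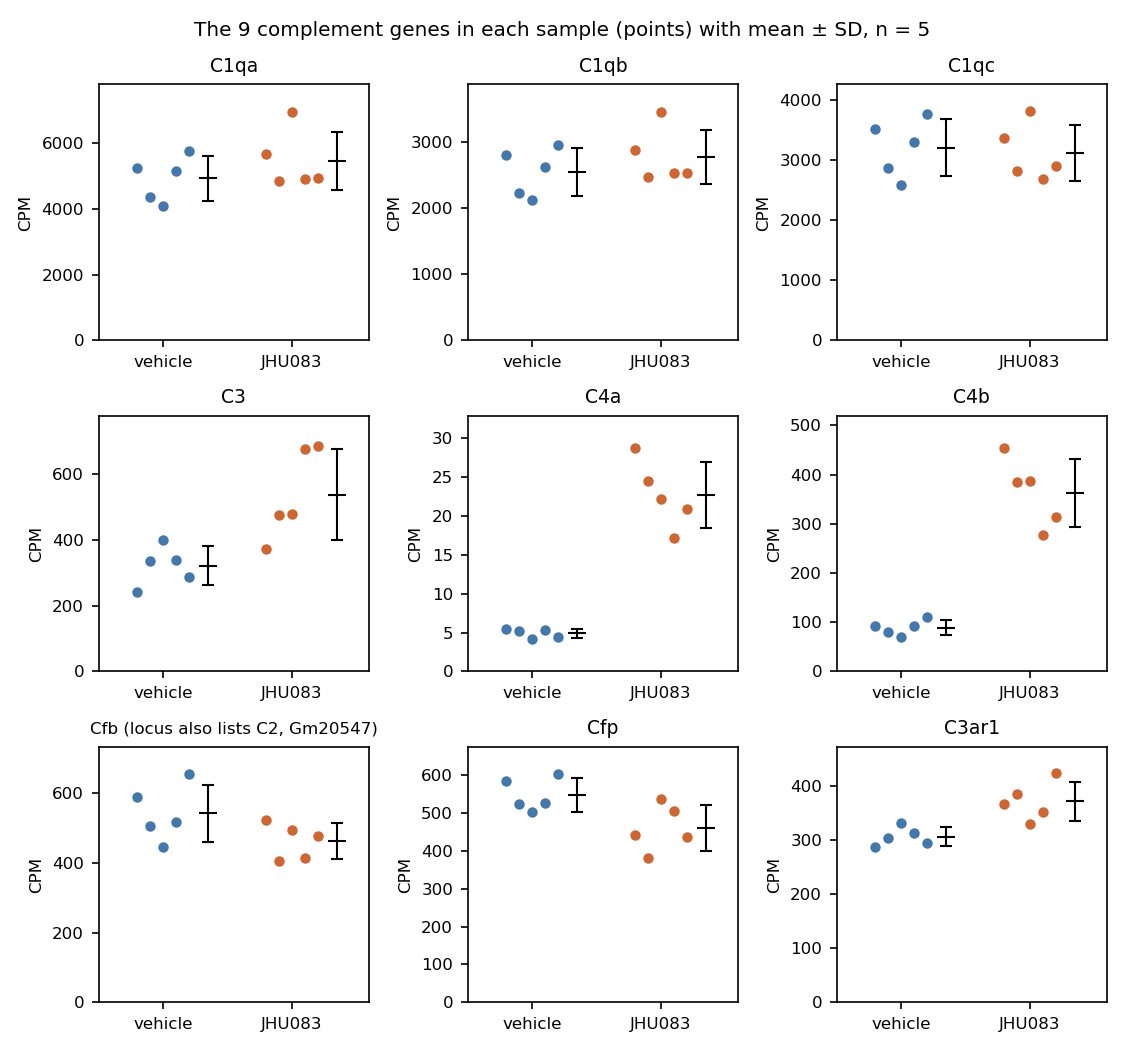
CPM of the 9 complement genes in each sample, with 5 vehicle (blue) and 5 JHU083 (orange) samples per panel, the mean and SD beside them, and a linear axis from 0. The points of C4a and C4b do not overlap between the groups, and those of the other genes do.

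The chains of C1q were the most abundant of the 9 genes. C1q is assembled from A, B and C chains, and its globular heads recognise antibody-coated or dying cells. The genes C1qa, C1qc and C1qb lie next to each other on the minus strand of chromosome 4 (GRCm38, GENCODE M21), at 136895917 to 136898803, 136889804 to 136893065 and 136880129 to 136886187. In the deposited FPKM values the vehicle means were 5481 ± 731 for C1qa, 2984 ± 434 for C1qc and 2689 ± 370 for C1qb (SD, n = 5). Among all loci these levels ranked 16, 31 and 40 in vehicle and 14, 34 and 32 in JHU083. Fragments of the chains made up 0.898% to 1.25% of a vehicle library and 0.973% to 1.34% of a JHU083 library.

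Promoter sequences were listed for 5 of the 9 genes: C1qb, C1qc, C3, Cfp and C3ar1 (RefSeq, GRCm38.p6, 250 bases before to 50 after the start). Those of C1qb and C1qc are shown because these neighbouring genes, described below, moved together from sample to sample. Capitals mark the match to the PU.1 motif, a transcription factor of the myeloid lineage.
C1qb promoter, chr4:136886151-136886450, minus strand: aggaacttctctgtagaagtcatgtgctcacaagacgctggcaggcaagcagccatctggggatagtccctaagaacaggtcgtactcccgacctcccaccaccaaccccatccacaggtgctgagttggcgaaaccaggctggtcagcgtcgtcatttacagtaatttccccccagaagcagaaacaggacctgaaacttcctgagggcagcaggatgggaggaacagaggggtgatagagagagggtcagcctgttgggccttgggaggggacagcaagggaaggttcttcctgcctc
C1qc promoter, chr4:136892865-136893164, minus strand: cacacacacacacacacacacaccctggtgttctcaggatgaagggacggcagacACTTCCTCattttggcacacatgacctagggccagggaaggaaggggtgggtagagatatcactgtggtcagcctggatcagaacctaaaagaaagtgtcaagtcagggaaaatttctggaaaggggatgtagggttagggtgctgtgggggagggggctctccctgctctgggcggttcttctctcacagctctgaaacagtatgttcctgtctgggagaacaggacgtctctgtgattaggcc
In all, 6 motifs were searched on both strands, with no overlap between the matches found. The PU.1 motif GAGGAAGT was found in C1qc, at -195 from the start, and in 3.2% of 32851 promoters of the same length. The AP-1 motif TGANTCA was found in C3ar1 at -22 (7.81% of promoters), and TATAAA in C3 at 14 and in C3ar1 at -235 (13.6%). The E-box CACGTG (7.15%), the interferon-stimulated response element (3.44%) and the STAT motif TTCNNNGAA (8.3%) had no match in the 5 windows. Such a match describes the letters and is not evidence of a bound site.

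C1qa stood at 5251, 4369, 4097, 5145 and 5742 CPM in vehicle samples 1 to 5 and at 5666, 4857, 6927, 4919 and 4943 CPM in JHU083 samples 1 to 5. The groups overlapped, with JHU083 sample 3 above all others and vehicle sample 3 the lowest. The means were 4921 ± 674 and 5462 ± 883 CPM (SD, n = 5), and the log2 fold change was 0.15 ± 0.14 (SE). C1qb stood at 2813, 2240.3, 2128, 2629 and 2963 CPM in vehicle and at 2883, 2479, 3458, 2531.5 and 2540.4 CPM in JHU083. The same samples were highest and lowest as for C1qa, and the log2 fold change was 0.12 ± 0.13 (SE). C1qc stood at 3522, 2869.8, 2590.0, 3300.4 and 3766 CPM in vehicle and at 3378.5, 2829, 3814, 2697 and 2907 CPM in JHU083. Its log2 fold change was -0.04 ± 0.13 (SE), so none of the chains differed between the groups by more than about 1 standard error. With a correction for GC content and length, chosen after the values were seen, the log2 fold changes were 0.40, 0.35 and 0.19 for C1qa, C1qb and C1qc, and in the 5 samples with Rn18s-rs5 at 0 they were 0.31, 0.28 and 0.12. The sign of the C1qc difference thus depends on these choices.

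The proportions of the chains were set apart between the groups. C1qc made up 30.4%, 30.3%, 29.4%, 29.8% and 30.2% of all C1q fragments in vehicle and 28.3%, 27.8%, 26.9%, 26.6% and 28.0% in JHU083. Every JHU083 sample was below every vehicle sample. C1qa made up 45.3% to 46.5% in vehicle and 47.5% to 48.8% in JHU083, without overlap, and C1qb 23.6% to 24.3% and 24.2% to 25.0%, with overlap. These shares are parts of the same total, so a lower C1qc share raises the others and the C1qa separation is not independent. The ratio of C1qc to C1qb fragments was 1.26 ± 0.0244 in vehicle and 1.13 ± 0.0414 in JHU083 (SD, n = 5). The shares computed from FPKM showed the same separation for C1qc, with 26.1% to 27.1% in vehicle and 23.6% to 25.1% in JHU083. The GC contents are 59.5%, 57.4% and 57.5% for C1qa, C1qb and C1qc. C1qc has 2 annotated transcripts against 1 each for the others, and spans 1.93 kb of exons against 1.04 and 1.09 kb for C1qa and C1qb. The part of these traits in the shares was not tested.

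**Figure D2:**
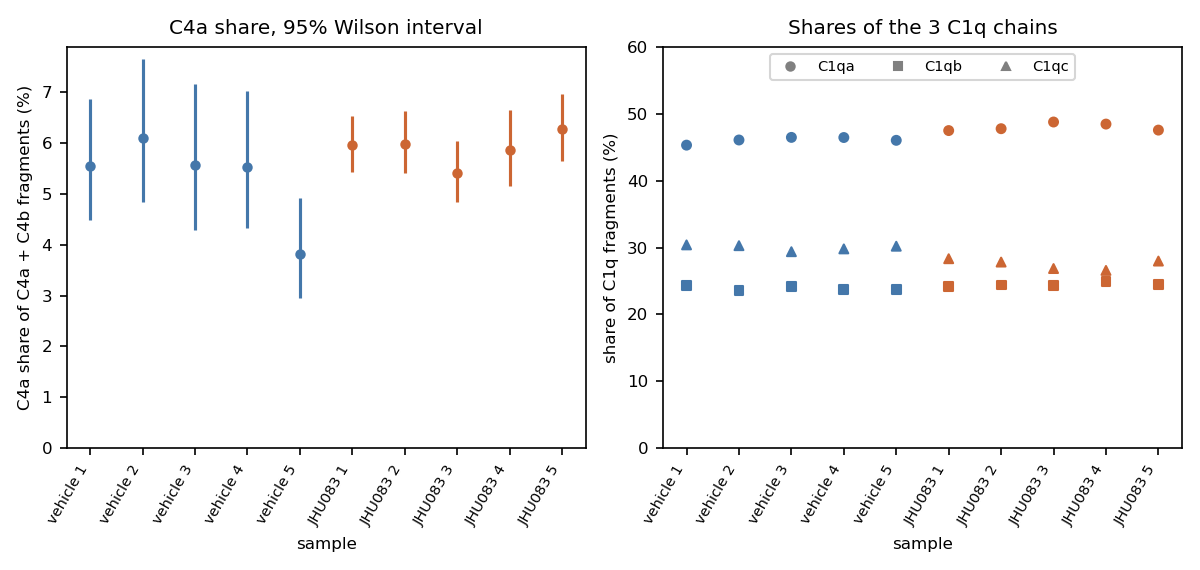
Left, the C4a share of all C4a and C4b fragments in each sample in percent, with its 95% Wilson interval; right, the share of each C1q chain in all C1q fragments in percent, with vehicle in blue and JHU083 in orange. The C4a share overlaps between the groups, with vehicle sample 5 lowest at 3.82%, while the C1qc share is at least 29.4% in vehicle and at most 28.3% in JHU083.

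C4 is cut by the classical and lectin proteases and binds covalently to the target surface. The mouse genome holds a pair of C4 copies in the class III region of the major histocompatibility complex: C4b, the standard complement C4 gene, and C4a, also known as sex-limited protein. On GRCm38 (GENCODE M21) C4b lies on the minus strand of chromosome 17 at 34728380 to 34743882 and C4a at 34809092 to 34823464. GENCODE M21 classes C4b as protein coding and C4a as a processed transcript. Over 5204 aligned coding bases the copies were 96.1% identical, with 201 differences and a longest identical run of 433 bases. Of the 150-base windows of the C4b transcript, 8.26% were also found in C4a, and of 75-base windows 23.5%, so some fragments cannot be placed in 1 copy and the split depends on the authors' counting. The stretch where the copies differ most is shown because only such bases separate their fragments. It lies in exon 21 of C4b-201, and capitals mark the 13 of 60 bases that differ.
C4b-201, chr17:34735430-34735489, minus strand: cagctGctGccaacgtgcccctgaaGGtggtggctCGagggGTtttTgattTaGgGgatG
C4a-207, chr17:34816086-34816145, minus strand: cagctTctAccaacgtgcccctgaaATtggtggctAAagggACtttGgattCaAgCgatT

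C4b had 1360, 1048, 934, 1059 and 1410 fragments in vehicle samples 1 to 5, or 92.4, 79.8, 70.5, 92.0 and 110.4 CPM. In JHU083 samples 1 to 5 it had 6651, 5603, 5189, 3615 and 4784 fragments, or 453.5, 384, 387, 276 and 313 CPM. The lowest JHU083 sample, number 4, was still above the highest vehicle sample, number 5. The means were 89.0 ± 15.0 and 363 ± 69.3 CPM (SD, n = 5), and the log2 fold change was 2.03 ± 0.14 (SE), or 4.08-fold. Over all loci, 35 of 12500 (0.28%) had a log2 fold change of at least 2. By FPKM, C4b moved from rank 4595 of all loci in vehicle to rank 1454 in JHU083.

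C4a was far lower, with 80, 68, 55, 62 and 56 fragments in vehicle and 421, 357, 297, 225 and 320 in JHU083. These are 5.43, 5.18, 4.15, 5.39 and 4.38 CPM in vehicle and 28.7, 24.5, 22.1, 17.2 and 20.95 CPM in JHU083. The groups did not overlap, and JHU083 samples 1 and 4 were again the highest and the lowest. The log2 fold change was 2.21 ± 0.15 (SE), or 4.62-fold. Across leaving out each sample in turn it lay between 2.11 and 2.29, and that of C4b between 1.93 and 2.11. In the samples with Rn18s-rs5 at 0 the values were 2.35 and 2.16 for C4a and C4b, and in those with it above 0 they were 2.11 and 1.99. The C4 difference was therefore of like size in both subsets of libraries.

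C4a fragments were 5.56%, 6.09%, 5.56%, 5.53% and 3.82% of all C4 fragments in vehicle and 5.95%, 5.99%, 5.41%, 5.86% and 6.27% in JHU083. The ranges overlapped, and vehicle sample 5 was the lowest (3.82%, 95% Wilson interval 2.95% to 4.93%, 56 of 1466 fragments, counting error only). The mean share was 5.31% ± 0.867 in vehicle and 5.90% ± 0.311 in JHU083 (SD, n = 5), a difference smaller than the SD in vehicle. The ratio of fragments to FPKM implied a C4a length of 1.76 to 2.96 kb, although the C4a-207 transcript spans 5371 bases, and a C4b length of 5.20 to 5.93 kb. The deposited FPKM of C4a is therefore not on the same length basis as that of C4b, and fragments were used to compare them.

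The epithelial marker sums were lower in JHU083. The fibroblast sums had a lower median (142.5 CPM in vehicle and 80.5 in JHU083), with overlap between the groups. The part of these cells in the C4 difference was not tested. Of the 6 macrophage markers, Mertk, Csf1r, Adgre1 and Lyz2 rose, by log2 fold changes of 0.97 ± 0.09, 0.51 ± 0.09, 0.63 ± 0.07 and 0.58 ± 0.15 (SE, edgeR adjusted p = 4.81e-06, 0.000632, 2.18e-05 and 0.00852). The other markers did not pass, with 0.16 ± 0.08 for Cd68 and -0.21 ± 0.10 for Fcgr1 (SE). Deviations of C4b from its group mean, over 10 samples, had a Pearson r of 0.78 with those of Csf1r, -0.46 with the epithelial keratin Krt8 and -0.09 with the collagen gene Col1a1. For C4a the values with the same genes were 0.48, 0.11 and 0.37. The other markers of these lists were not compared in this way. These samples share library and sort effects, and the correlations are descriptions.

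The genes around C4 in the class III region were examined next. Of 10 neighbours listed, 8 could be tested; 2 were lower in JHU083 and 6 did not pass, with a median log2 fold change of -0.22, beside 18.4% and 18.3% of all loci. Nelfe, a subunit of the negative elongation factor, fell by 0.51 on the log2 scale (SE 0.10, edgeR adjusted p = 0.00113), and Atf6b, an endoplasmic reticulum stress transcription factor, fell by 0.37 (SE 0.09, edgeR adjusted p = 0.00552). Stk19, within 1 kb of C4a, had a log2 fold change of 0.00 ± 0.11 (SE), and Dxo, an RNA decapping enzyme, had -0.27 ± 0.11. The remaining values were 0.22 ± 0.17 for Zbtb12, 0.03 ± 0.09 for the histone methyltransferase gene Ehmt2, -0.16 ± 0.08 for the RNA helicase gene Skiv2l and -0.33 ± 0.19 for Fkbpl. Zbtb12 overlaps C2 on the opposite strand, so without strand their fragments cannot be told apart. Cyp21a1 and Tnxb, the genes between and beside the C4 copies, were too low to test, with at most 20 fragments in a sample.

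**Figure D3:**
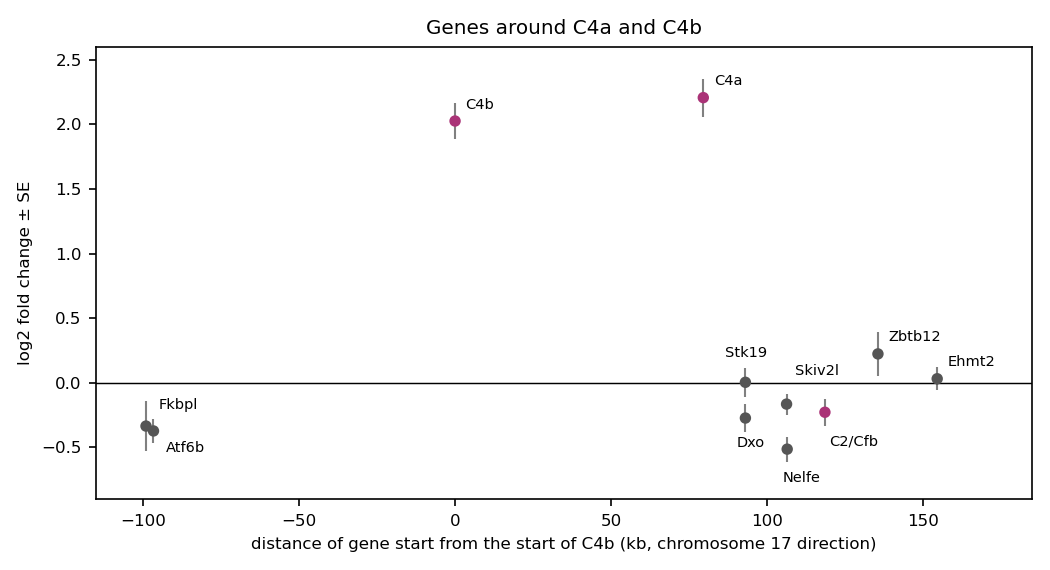
Log2 fold change (JHU083 over vehicle, with SE bars, 5 samples per group) of the genes around C4a and C4b against the distance of each gene's start from that of C4b in kb. C4b (2.03) and C4a (2.21) stand above the neighbours, which range from -0.51 for Nelfe to 0.22 for Zbtb12; the C2/Cfb point is 1 shared locus.

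C3 is the component on which all complement pathways converge, and its cleavage yields the opsonin C3b and the anaphylatoxin C3a. The gene lies on the minus strand of chromosome 17 at 57203970 to 57228136, 22484 kb from C4b. C3 stood at 243, 338, 400, 340.3 and 287 CPM in vehicle and at 372, 475, 479.6, 678 and 686 CPM in JHU083. The groups overlapped in 1 sample each, since JHU083 sample 1 lay below vehicle sample 3. The means were 322 ± 59.3 and 538 ± 138 CPM (SD, n = 5), which is 1.67-fold, and the log2 fold change was 0.74 ± 0.17 (SE). In the samples with Rn18s-rs5 at 0 the log2 fold change was 0.41, and in the others 0.92. Leaving out each sample in turn gave 0.64 to 0.85.

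C3 and C4 did not follow each other from sample to sample. Among the JHU083 samples, number 1 had the most C4b and the least C3, and numbers 4 and 5 had the least C4b and the most C3. Among the vehicle samples, number 3 had the least C4b and the most C3. The deviations from the group means had a Pearson r of -0.86 for C3 with C4b and -0.76 for C3 with C4a, over 10 samples. The ratio of C4b to C3 in FPKM was 0.258, 0.183, 0.129, 0.195 and 0.275 in vehicle and 0.948, 0.620, 0.617, 0.317 and 0.353 in JHU083. The ratio was higher in every JHU083 sample than in any vehicle sample, and it varied more than 2-fold within each group. Since the set was chosen for the rise of C4a and C4b, and C3 rose less, this separation is no further result.

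Factor B is the protease that joins C3b in the alternative pathway convertase. Its locus in the deposited tables also lists C2, the classical pathway counterpart of factor B, and Gm20547, a read-through model that overlaps both, so the values below cover all of them. On GRCm38 Cfb lies at 34856374 to 34862518 and C2 at 34862604 to 34898265 of chromosome 17, minus strand. The locus stood at 588, 506, 444, 515 and 653 CPM in vehicle and at 523, 404, 494, 414 and 477 CPM in JHU083. The groups overlapped, and the log2 fold change was -0.23 ± 0.11 (SE). The means were 541 ± 80.9 and 462 ± 51.7 CPM (SD, n = 5).

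Properdin, the product of Cfp, stabilises the alternative pathway convertase and is released by myeloid cells. Cfp lies on the minus strand of chromosome X at 20925454 to 20931555. It stood at 585, 522, 501, 525 and 602 CPM in vehicle and at 441, 380.4, 535, 505 and 437 CPM in JHU083. JHU083 samples 3 and 4 lay within the vehicle range, and the other JHU083 samples lay below it. The log2 fold change was -0.25 ± 0.09 (SE), and with the GC and length correction it was -0.06.

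C3ar1, the receptor of C3a, lies on the minus strand of chromosome 6 at 122847138 to 122856161. It stood at 287, 303, 332, 312 and 295 CPM in vehicle and at 367, 385, 328.5, 352 and 422 CPM in JHU083. Only JHU083 sample 3 fell inside the vehicle range. The means were 306 ± 17.5 and 371 ± 35.5 CPM (SD, n = 5), which is 1.21-fold, and the log2 fold change was 0.28 ± 0.08 (SE). With the GC and length correction it was 0.17.

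By level per length the 9 genes spanned more than 3 orders of magnitude. In deposited FPKM the vehicle order was C1qa, C1qc, C1qb, Cfp (355 ± 26.4), the Cfb locus (212 ± 33.6), C3 (80.3 ± 13.9), C3ar1 (68.5 ± 4.10), C4b (16.1 ± 2.66) and C4a (2.29 ± 0.562; SD, n = 5 each). Neighbours in this order did not overlap between their vehicle values, with 2 exceptions. C3 and C3ar1 overlapped, and so did C1qc and C1qb, although C1qc was the higher of the pair in each vehicle sample. With fragments per kilobase of annotated exon, C1qb came before C1qc and C3ar1 before C3. The FPKM of C4a rests on a shorter length than that of C4b, so the gap between them is not to be read from FPKM; per kilobase of annotated exon they stood at 0.790 and 15.6 CPM in vehicle. In JHU083 the means were 128 ± 32.6 for C3, 83.5 ± 8.23 for C3ar1 and 66.4 ± 12.8 for C4b. There C3ar1 overlapped both C3 and C4b, and C3 overlapped the Cfb locus. The means of C1qb (2932 ± 416) and C1qc (2914 ± 419) changed places, with overlap, and C1qc stayed the higher in JHU083 samples 1, 2 and 5. The other means kept their order, and C4a was last at 9.86 ± 0.991 FPKM (SD, n = 5 each).

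The C1q chains varied together within the groups. Deviations from the group means over 10 samples had a Pearson r of 0.99 for C1qa with C1qb, and 0.98 for C1qc with each of them. C4a and C4b had 0.67, although C4a rests on few fragments in vehicle. C4b had 0.81 with C1qc and 0.71 with each of C1qa and C1qb, so its deviations followed the C1q chains at least as closely as those of C4a. C1qb had 0.81 with the Cfb locus, -0.61 with C3 and -0.71 with C3ar1. These are correlations across the same 10 libraries and are descriptions. Outside the 9 genes, the loci most like C1qb were the Eva1b and Gm12946 locus, Cib1, Rtfdc1 and Capns1 with an r of 0.99 each and Mapk3 with 0.98. The loci most like C4b were Gna12 and Bag6 (0.97 each), Zfp385a and Il10ra (0.95 each) and Pigt (0.94). Those most like C3 were Flt1, H2-M2, Tnfrsf26 and Dync1li1 (0.97 each) and Arrdc4 (0.96).

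The variation of some of these genes went with a GC slope computed for each sample. For each sample, the log2 CPM of each locus was taken as a deviation from its mean over all samples. The slope of these deviations on GC content was 0.018 to 0.145 per 10 points of GC in vehicle and -0.165 to 0.043 in JHU083. It is thus relative to the average sample. The within-group slope was computed in the same way from deviations from the group mean. The deviations of the genes had a Pearson r with the within-group slope of 0.92 for C1qa and C1qb, 0.89 for C1qc, 0.61 for C4b, 0.26 for C4a, -0.63 for C3 and -0.86 for C3ar1. The GC contents were 59.5%, 57.4% and 57.5% for the C1q chains, 55.2% for C4b, 55.1% for C4a, 53.3% for C3 and 43% for C3ar1, against a median of 49.6% over 12190 loci. C3 lies above that median although its r is negative, so the sign of r did not follow GC content in every gene. The part of GC content in the difference between the groups was not tested beyond the correction, under which C4a and C4b had log2 fold changes of 2.30 and 2.12 and C3 had 0.82.

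**Figure D4:**
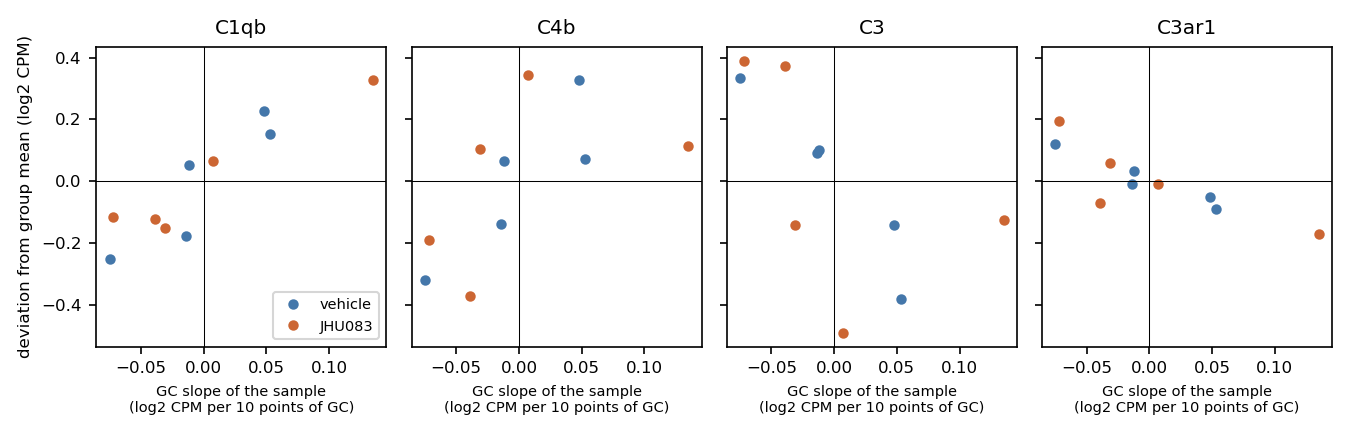
Deviation of C1qb, C4b, C3 and C3ar1 from the mean of their group in log2 CPM against the sample's GC slope within its group, in log2 CPM per 10 points of GC content, with 1 point per sample. C1qb (r = 0.92) increases with the slope and C3ar1 (r = -0.86) decreases, while C4b (0.61) and C3 (-0.63) scatter more.

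The rest of the pathway was read from a list of 54 other complement genes. C2 shares the Cfb locus, and of the other 53, 25 could be tested; 7 were higher, 2 were lower and 16 did not pass, with a median log2 fold change of 0.03, beside 18.4% higher and 18.3% lower over all loci. The 28 too low to test had at most 29 fragments in a sample, and 8 of them were at 0 in every sample, which at the present depth allows up to 0.261 CPM in any sample. They included the mannose-binding lectins Mbl1 and Mbl2, factor I (Cfi) and the C4b-binding protein (C4bp). Of the proteases that act on C4 with C1q, C1ra stood at 44.5 and 41.7 CPM with a log2 fold change of -0.09 ± 0.09 (SE), and C1s1 had 8 to 24 fragments in vehicle and 4 to 15 in JHU083, with -0.71 ± 0.42. The terminal component C5 (Hc) had at most 3 fragments in any sample, and factor D (Cfd) likewise.

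Clu, clusterin, which blocks insertion of the terminal complex, fell by 1.65 on the log2 scale (SE 0.25, edgeR adjusted p = 0.0002), from 48.7 ± 16.7 to 15.5 ± 4.93 CPM (SD, n = 5). Its direction was that of the 8 epithelial markers, whose part in it was not tested.

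Among membrane regulators, Cr1l, which encodes the rodent inhibitor Crry, rose by a log2 fold change of 0.33 ± 0.06 (SE, edgeR adjusted p = 0.00133), from 53.6 ± 1.06 to 67.5 ± 2.86 CPM (SD, n = 5). With the GC and length correction its value was 0.13 (edgeR adjusted p = 0.221). Cd59a, an inhibitor of pore formation, rose by 0.79 ± 0.21 on the log2 scale (SE, edgeR adjusted p = 0.0106), at 2.44 ± 0.470 and 4.22 ± 0.966 CPM (SD, n = 5). In the samples with Rn18s-rs5 at 0 neither passed (edgeR adjusted p = 0.135 for Cr1l and 0.352 for Cd59a), nor did Cr1l in those with it above 0 (edgeR adjusted p = 0.059). The terminal component C6 stood at 71.9 ± 6.20 and 145 ± 14.5 CPM (SD, n = 5) and rose by 1.01 ± 0.09 on the log2 scale (SE, edgeR adjusted p = 3.16e-06). Colec12, a scavenger receptor with a collectin domain, stood at 129 ± 4.44 and 184 ± 21.4 CPM (SD, n = 5) and rose by 0.51 ± 0.08 on the log2 scale (SE, edgeR adjusted p = 0.000278).

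Of 12 complement receptors tested, Vsig4, the macrophage receptor of C3b and iC3b, had the largest fold change. It had 19, 11, 13, 7 and 19 fragments in vehicle and 128, 122, 93, 38 and 64 in JHU083, a log2 fold change of 2.56 ± 0.33 (SE, edgeR adjusted p = 6.43e-05). The groups did not overlap, and the level stayed low, at 6.22 ± 2.57 CPM in JHU083 (SD, n = 5). Lrp1, a large endocytic receptor that acts with calreticulin in uptake of C1q-bound cells, rose by a log2 fold change of 0.47 ± 0.13 (SE, edgeR adjusted p = 0.0124). Its groups overlapped, its deposited FPKM of 122 ± 18.6 and 129 ± 19.5 (SD, n = 5) differed by less than the SD, and it did not pass in the samples with Rn18s-rs5 at 0 or in those with it above 0 (edgeR adjusted p = 0.175 and 0.0732). C1qbp, a mitochondrial protein first found as a binder of C1q, fell by 0.35 on the log2 scale (SE 0.09, edgeR adjusted p = 0.0107). In the 5 samples with Rn18s-rs5 at 0 it did not pass (edgeR adjusted p = 0.305).

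The other receptors at 10 CPM or more did not pass the test. The C5a receptor C5ar1 stood at 125 and 126 CPM, and the chains of complement receptors 3 and 4 (Itgam, Itgax and Itgb2) had log2 fold changes of 0.03 ± 0.08, 0.02 ± 0.10 and -0.09 ± 0.08 (SE). The locus of Itgam lists a further symbol. Cd93 and Lair1 had 0.12 ± 0.12 and 0.14 ± 0.06, and Calr, calreticulin, had -0.22 ± 0.09 with an edgeR adjusted p of 0.0581, but passed, among other alternatives, with DESeq2 (adjusted p = 0.0176) and without JHU083 sample 3 (edgeR adjusted p = 0.0229). Fcna, ficolin A of the lectin pathway, stood at 130.1 and 164 CPM with a log2 fold change of 0.33 ± 0.16 (SE, edgeR adjusted p = 0.113), and passed without JHU083 sample 1 (0.46, edgeR adjusted p = 0.016) and with the GC and length correction (0.50, edgeR adjusted p = 0.0209).

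**Figure D5:**
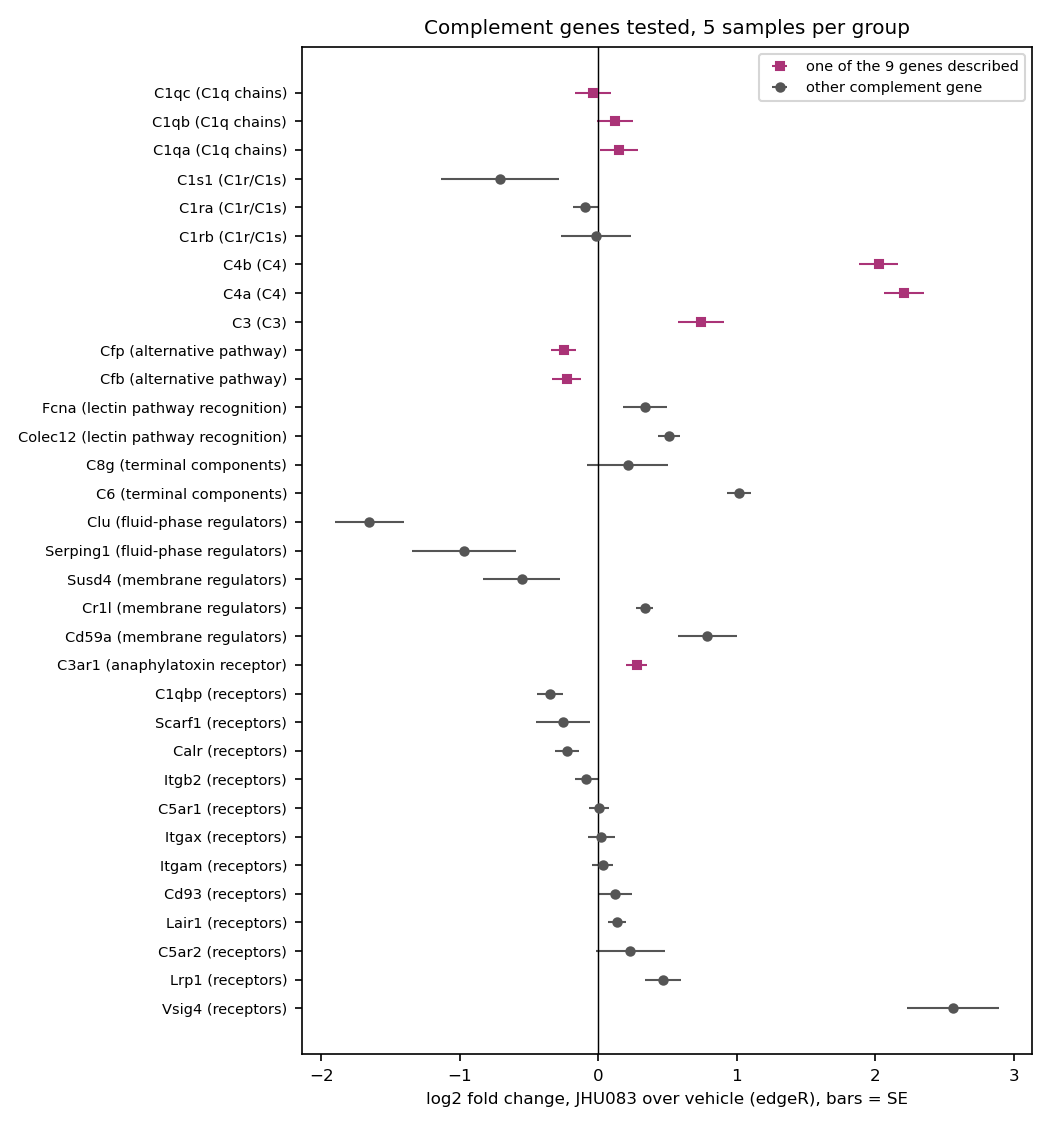
Log2 fold change (JHU083 over vehicle, edgeR, bars are SE, 5 samples per group) of the 9 genes described and of other complement genes tested, grouped by role, with 1 tested gene not shown. C4a, C4b and Vsig4 lie above 1.5, Clu lies below -1.5, and the C1q chains and most receptors lie near 0.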

How the data were processed

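Poly(A)-selected RNA was randomly primed and sequenced in pairs, per the labels' protocols. The submitters' processing notes name GRCm38, bcl2fastq 2.17.1.14, FastQC 0.11.2 and TopHat2 2.1.1; the counting program, its strand setting and its annotation are not given in the sources used here. The authors deposited a column headed as raw counts, whose values are not whole and were named estimated counts: nearly all are whole multiples of 1 step per sample (0.888 to 1.1697). Dividing by the step gave values within 0.1 of a whole number for at least 99.93% of positive values, and these were rounded to fragment counts. The other column holds FPKM that the authors deposited, identified from its values.

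A locus with no symbol (2309 fragments) was left out, and 1060 loci list more than 1 symbol. Loci were filtered with filterByExpr, scaled by TMM and compared with edgeR 4.0.16 (R 4.3.3, quasi-likelihood test, Benjamini-Hochberg at 0.05 over 12500 loci). The test was also run on simulated counts, and nothing above rests on that run. No pair of samples within a group agreed within sampling noise (chi-square per degree of freedom of at least 5.8). Alternatives used DESeq2 1.42.0, limma 3.58.1 with and without quality weights, other scalings and filters, a block, subsets of samples, and a GC and length correction with mgcv 1.9.3, chosen after seeing the data. Genes, lists and tests were chosen with earlier results of these data known. Named are the 9 genes, each other complement gene past 0.05 or at 10 CPM or more (some lower ones were added after their values were seen), each neighbour tested, and the 5 loci with the highest r for C4b, C1qb and C3 at an average log2 CPM of at least 2. A gene that this rule names is not reported here, though it is in the counts. Positions and lengths are from GENCODE M21. Intervals cover counting error only.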

Additional observations from a re-analysis of the deposited data

Results flagged for a closer look

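In 68 groups of 5 samples examined for a sample far from the rest, 2 were picked out, where chance alone would pick about 1 in 20, or 3.4. For Cr1l, the vehicle sample 4 was lowest at a log2 CPM of 5.70, against 5.75 to 5.77 in the other vehicle samples, so the gap made up 0.80 of the range (limit 0.71). For Cd59a, the JHU083 sample 1 was lowest at a log2 CPM of 1.45, against 2.11 to 2.36 in the other JHU083 samples, with a gap of 0.73 of the range. None of the groups of the 9 complement genes was picked out.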

How the results depend on the processing

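C4a and C4b were higher in JHU083 under each alternative run, with log2 fold changes of at most 2.35 and 2.16 (lowest for C4b 1.93), and C3 was too, with 0.41 (only samples with Rn18s-rs5 at 0) to 0.92. With the GC and length correction C1qa, C1qb, C1qc and Cfp moved to 0.40, 0.35, 0.19 and -0.06. Depth limits C4a in vehicle, with 55 to 80 fragments, and the genes at 0.

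In the samples with Rn18s-rs5 at 0, 532 loci were higher and 586 lower, with 4 and 1 of the other complement genes. In those with it above 0, 1276 loci were higher. Of the other complement genes, 4 were lower with library-size scaling, with limma-voom and with quality weights. Leaving out each sample in turn gave 1821 (without vehicle replicate 1) to 2899 (without JHU083 replicate 3) loci higher and 1900 to 2930 lower (the same samples), 7 to 8 other complement genes higher and 2 to 3 lower.

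Genes whose sign turned did not pass the test in either direction. C1rb (-0.02) had 0.03 with limma-voom, 0.15 with quality weights, 0.07 at 0 of Rn18s-rs5, 0.08 with the GC correction, and -0.17 to 0.19 without 1 sample. C5ar1 (0.00) had -0.07 with library-size scaling, -0.01 and -0.00 with the other filters, -0.02 at 0 of Rn18s-rs5, and -0.03 to 0.05 without 1 sample. Itgam (0.03) had -0.05 with library-size scaling and -0.06 above 0 of Rn18s-rs5, and Itgax (0.02) had -0.06 and -0.02, with -0.03 to 0.08 without 1 sample. Itgb2 had 0.05 and Scarf1 0.12 at 0 of Rn18s-rs5, where C1ra had 0.00, and Itgb2 had 0.03 with the GC correction. The cause was not tested.

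The replicate numbers did not pair the samples: same-numbered samples correlated by -0.569 to 0.091, and 0 of 5 correlated best with its own number. With the replicate block, 1612 loci were higher and 1757 lower, 7 and 2 of the other complement genes passed, C4a and C4b had 2.20 and 2.02, C1rb turned to 0.02, Fcna passed (0.32, edgeR adjusted p = 0.0427) and Lrp1 did not (0.46, edgeR adjusted p = 0.0558).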
